A study of Mus musculus with 91 samples.

Results

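The mature entries mmu-miR-6240, mmu-miR-5126, mmu-miR-3473c, mmu-miR-3535 and mmu-miR-5099 of a mouse miRNA count table were followed across all libraries of a study of DNA methylation in early embryos. They are 5 of the 1504 mature entries in the table. All 5 carry high miRBase numbers, given to sequences that entered the registry late and mostly from deep sequencing, and they were named as entries that may be fragments of other RNAs. The choice also used measured values: miR-6240 was chosen by its high level in Epi of E6.5 Dnmt-null embryos. The contrast of Dnmt-null and Control in E6.5 Epi is therefore described below without a test.

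The libraries came from CAS-seq, a small RNA protocol for picogram amounts of RNA in which Cas9 assists the preparation of the library. Extraembryonic ectoderm (Exe) and epiblast (Epi) were taken at E6.5 and E7.5, from embryos of 4 genotypes. They are Control (Con in the titles), Dnmt1-KO (KO), Dnmt3a/3b-DKO (DKO) and Dnmt-null (TKO), and the labels give the strain of all as C57BL/6 male X F1 female. In the study's methods the mothers were B6D2F1, and the fathers carried an Oct4-EGFP transgene on a C57BL/6J background. Dnmt-null lacks Dnmt1, Dnmt3a and Dnmt3b together, and the mutations are stop codons that a base editor wrote into injected zygotes. Each of these 16 groups held 4 libraries, apart from Control and Dnmt-null Epi at E7.5 with 3 each. What the Control zygotes had been injected with, and how many embryos each library pooled, is not given in the sources used here. Haploid embryonic stem cells carrying a sperm genome (AG-haESCs, C57BL/6, kept with inhibitors of Mek and Gsk3) gave 3 WT libraries, 3 of line O48 and 2 of Mir-6KO. O48 is the parent line of Mir-6KO and lacks the H19 and IG DMRs, the control regions of imprinted loci. Mir-6KO additionally lacks 6 miRNAs. Semi-cloned (SC) embryos, made by injecting such cells into oocytes, gave 3 libraries per group. At E6.5 these were WT, Dnmt-null (Dnmt-TKO in the titles) and DKO, which in SC embryos means loss of both DMRs and not of Dnmt3a and Dnmt3b. The labels call these embryos, while the study's own text calls the E6.5 samples epiblast, so what tissue they hold was not settled. At E7.5 they were Control, derived from cells without the DMRs, and Mir-6KO;Dnmt-null. Nothing in the labels says that replicates were separate litters or cultures, so p-values measure the spread between libraries, which may be technical.

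A miRNA is cut from a hairpin precursor by Drosha and Dicer, and its seed, the bases near the 5′ end, pairs with target mRNAs. Small RNA reads also contain pieces of ribosomal RNA, small nucleolar RNA (snoRNA) and transcribed repeats, and such a piece is counted as a miRNA when it matches a registered mature sequence. miR-6240 resembles a stretch of large-subunit ribosomal RNA, and the miR-3473 family resembles short interspersed repeats of the B2 kind. DNMT1 copies CpG methylation after replication, while DNMT3A and DNMT3B write it anew when the embryo implants, and the study asked whether miRNA levels change once these enzymes are gone.

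The mature sequences are shown first because their composition, length and origin set these entries apart from each other. They are RefSeq sequences on GRCm38.p6, 5′ to 3′, with the seed, bases 2 to 8, in capitals.
miR-6240: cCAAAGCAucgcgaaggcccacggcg
miR-5126: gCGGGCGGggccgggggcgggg
miR-3473c: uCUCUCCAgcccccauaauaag
miR-3535: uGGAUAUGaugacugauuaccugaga
No seed was shared between these 4 entries. For miR-5099, RefSeq gave the hairpin Mir5099, 74 bases on the plus strand at chr12:36816205-36816278. It stands here as the annotated hairpin of the most abundant of the entries, and whether the reads come from it was not tested.
Mir5099: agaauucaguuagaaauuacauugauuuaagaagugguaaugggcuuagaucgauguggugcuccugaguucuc

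miR-5126 (chr1:84695890-84695911, plus strand) consisted of G and C alone, and it was the only one of 1679 mature sequences with a GC content of 100%. It lies opposite to exon 1 of Dner, a transmembrane ligand of Notch receptors, within a part annotated as UTR. Its hairpin ends 306 bases from the Dner start. miR-6240 (chr5:114851973-114851998, plus strand) had a GC content of 69.2% and 4 CpG dinucleotides, a number reached by 0.95% of the mature sequences. It is intergenic, and the nearest coding gene, 4930519G04Rik, begins 1600 bases from its hairpin. At 26 bases, miR-6240 and miR-3535 belonged to the 14 longest of the 1679 sequences. Mir5099 lies 126702 bases from the nearest coding gene, Ispd.

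miR-3535 (chr1:86352062-86352087, minus strand) lies in an intron of Ncl, the gene of the nucleolar protein nucleolin, apart from 2 bases in an exon of the retained-intron transcript Ncl-204. It is identical to the first 26 bases of an annotated snoRNA, Gm24148 (chr1:86352008-86352087, minus strand, GRCm38), which is printed with those bases in capitals.
Gm24148: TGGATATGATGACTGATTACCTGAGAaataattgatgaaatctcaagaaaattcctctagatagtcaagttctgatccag
The letters AUGAUGA, which hold the C box by which C/D snoRNAs are recognised, occurred once in miR-3535 and in 3 of the 1679 mature sequences (0.18%), searched on the given strand only. The D box letters CUGA occurred in 12.92% of them.

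miR-3473c (chr1:191998602-191998623, minus strand) lies within Traf5, a signalling adaptor of the TNF receptor family. It is intronic in the transcripts Traf5-201 and Traf5-202. In the retained-intron transcript Traf5-204, 17 of its bases lie in exon 1 on the same strand. It runs complementary to its own relatives. The longest such run, 12 bases with miR-3473b and miR-3473e, is in capitals.
miR-3473c: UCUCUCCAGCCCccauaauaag
miR-3473b: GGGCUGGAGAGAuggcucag
miR-3473e: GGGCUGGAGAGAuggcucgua
The runs with miR-3473a, miR-3473f, miR-3473g and miR-3473h-5p were 6 to 9 bases long and also complementary, while miR-3473d shared 8 bases on the same strand.

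Library totals set the precision of these levels. The total of all counts was 45242 to 2394918 in Exe and Epi, 154061 to 2425038 in SC embryos at E6.5, 8570373 to 26970637 in SC embryos at E7.5 and 3813865 to 16501907 in AG-haESCs. Totals moved with genotype in Epi. In E6.5 Epi they were 281158 to 458837 in Control and 45242 to 123169 in Dnmt-null, and in E7.5 Epi 1623256 to 2325698 against 272867 to 488108, with no overlap at either stage. Their part in the results was not tested beyond the fits with the total as a covariate given below. Lineage marker miRNAs were all detected, and the epiblast and trophoblast sets followed the tissue labels by their medians. The summed miR-302 cluster markers of epiblast had a median of 156100 counts per 1000000 library counts (CPM) in Epi and 24940 CPM in Exe. The summed trophoblast markers had 3562 CPM in Epi and 31930 CPM in Exe. The miR-290 cluster markers did not set the stem cells apart. They summed to 54050 to 56500 CPM in WT AG-haESCs, 64010 to 94930 CPM in E6.5 Exe Control and 56050 to 60620 CPM in E6.5 Epi Control. The Mir-6KO cells went against their label as naive stem cells, with 238800 to 267000 CPM of the epiblast markers against 917.9 to 1658 CPM in O48, and 10280 to 11790 CPM of the miR-290 cluster markers against 62680 to 73170 CPM. In SC WT replicate 3 the epiblast markers summed to 21180 CPM, the lowest among SC libraries. Over 658 well-counted entries, the libraries least like the rest of their group were E6.5 Epi Dnmt-null replicate 1 and E6.5 Exe Dnmt1-KO replicate 3, with median Spearman correlations of 0.748 and 0.77. Intervals and floors below cover counting error only. In bulk samples, fewer cells of a type and less RNA per cell cannot be told apart.

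The 5 entries together held a median of 3.124% of all counts over the 85 libraries with a group, with a range of 0.05993% to 11.41%. In Exe and Epi, nearly all of it was miR-5099. The 626 other entries numbered 3000 or above held a median of 0.7585% between them over 88 libraries. Shares differed by sample type, with group means of 1.759% to 6.849% in Exe and Epi, 0.1475% to 1.512% in SC embryos and 0.0624% to 0.152% in AG-haESCs. The highest mean, 6.849% ± 2.999 (SD, n = 4), was in E6.5 Epi Dnmt-null and the lowest in O48. These classes were sequenced to different totals and no test was made between them.

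**Figure D1:**
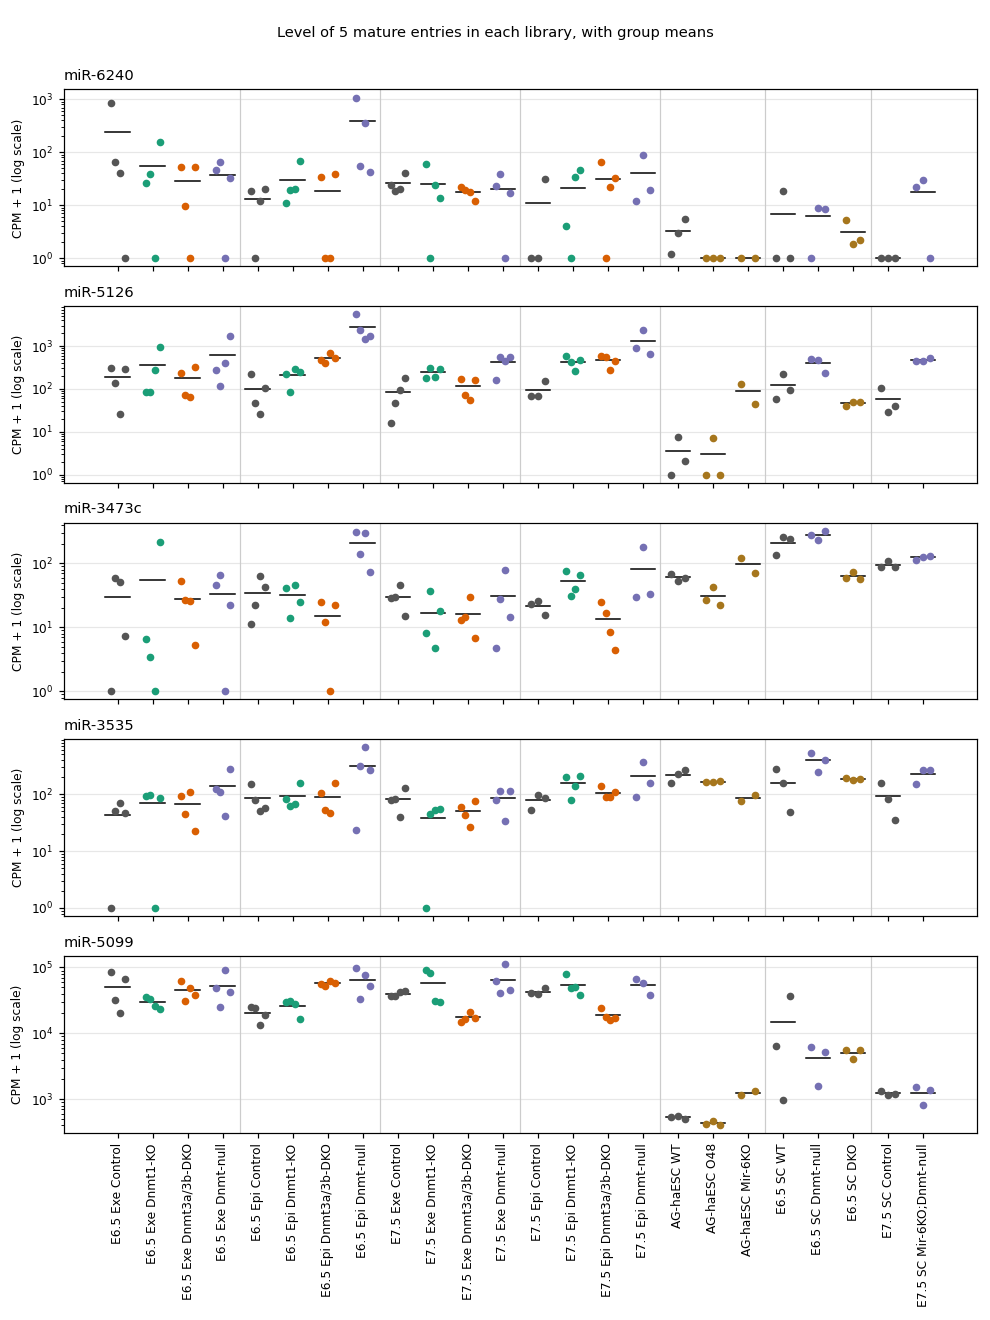
CPM plus 1 (log axis) of the 5 entries in each library of the main table, with one point per library and a line at the group mean, for 24 groups of embryos and AG-haESCs on the horizontal axis. miR-5099 lies between 13330 and 113500 CPM in every Exe and Epi library and between 409.5 and 1347 CPM in the assigned AG-haESCs, and the other 4 entries include libraries at 0, drawn at 1.

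miR-5099 was among the most abundant mature miRNA entries in Exe and Epi. It ranked between 1 and 20 of all entries in every one of the 62 Exe and Epi libraries, and first in 4 of them. The median was 38640 CPM there, 5584 CPM in SC embryos at E6.5, 1266 CPM in SC embryos at E7.5 and 512.9 CPM in AG-haESCs. Its rank was 8 to 116 in SC embryos at E6.5, 81 to 112 in SC embryos at E7.5 and 69 to 123 in AG-haESCs. The highest value, 113500 CPM in E7.5 Exe Dnmt-null replicate 4, rested on 95477 counts, with a 95% exact binomial interval of 113000 to 114000 CPM. When the 24 groups were ordered by mean, neighbouring groups overlapped in 19 of 23 pairs, and the breaks included those between E6.5 SC Dnmt-null and Mir-6KO cells and between E7.5 SC Control and WT AG-haESCs.

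The Dnmt3a/3b-DKO contrast of miR-5099 in Epi had opposite signs at the 2 stages. At E6.5 the Control libraries held 25410, 24590, 13330 and 18870 CPM and the Dnmt3a/3b-DKO libraries 55450, 51970, 63270 and 58230 CPM. All DKO libraries were above all Control libraries, and the fitted difference was 1.45 ± 0.273 on the log2 scale (SE; adjusted p = 0.00169, edgeR). At E7.5 the Control libraries held 40470, 39320 and 48000 CPM and the DKO libraries 24560, 17690, 15800 and 17350 CPM. Here all DKO libraries were below all Control libraries, at -1.26 ± 0.242 (adjusted p = 0.00262). In E6.5 Epi the miR-290 cluster markers summed to 32650 to 45760 CPM in DKO and 56050 to 60620 CPM in Control. In E7.5 Epi they were 14690 to 20760 against 13920 to 14270 CPM, and the trophoblast markers 1643 to 3843 against 1389 to 1578 CPM. The epiblast markers overlapped at both stages and the trophoblast markers at E6.5. The part of the markers was not tested.

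The difference between these 2 contrasts, tested as an interaction in a fit of all 62 libraries, was -2.67 ± 0.524 on the log2 scale (adjusted p = 0.00261). It was the only one of 50 such differences between tissues or stages, those with Dnmt-null in E6.5 Epi left out, with an adjusted p under 0.05 among the 5 entries, and in the same interaction 4.56% of the 658 entries tested passed that limit. The sign of both contrasts and their passing at the unadjusted limit were the same with log2 library total as a covariate, at 1.22 (adjusted p = 0.0504) and -1.82 (adjusted p = 2.74e-05). In E7.5 Exe the direction was that of E7.5 Epi, with 14690 to 21180 CPM in DKO and 36600 to 44260 CPM in Control, and a log2 fold change of -1.25 ± 0.379 that missed the limit after adjustment (adjusted p = 0.0965). In E6.5 Exe the DKO contrast did not pass, at -0.35 ± 0.403 (adjusted p = 0.941).

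Among Control embryos miR-5099 depended on tissue and stage. At E6.5 it was higher in Exe than in Epi, with 85550, 32270, 20510 and 66270 CPM against the Epi values above and a fitted difference of 1.26 ± 0.321 (adjusted p = 0.00686). The ranges overlapped, and with the total as a covariate the value was 0.62 and did not pass (adjusted p = 0.312). Epi rose from E6.5 to E7.5 by 1.09 ± 0.339 (adjusted p = 0.0224), with no overlap between the stages. Neither tissue at E7.5 (-0.18 ± 0.34, adjusted p = 0.775) nor stage in Exe (-0.35 ± 0.316, adjusted p = 0.552) passed. Dnmt1-KO differed by -0.94 in E6.5 Exe at the study's thresholds (SE 0.406, adjusted p = 0.395), a value that was -0.55 and did not pass with the total as a covariate (adjusted p = 0.862), and was -0.59 and did not pass without Control replicate 1. It also did not pass without Control replicate 4 (-0.75), Dnmt1-KO replicate 3 (-0.83) or Dnmt1-KO replicate 4 (-0.76).

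In Dnmt-null embryos no tested contrast of miR-5099 passed, at -0.15 ± 0.403 (adjusted p = 0.935) in E6.5 Exe, 0.79 ± 0.376 (adjusted p = 0.237) in E7.5 Exe and 0.13 ± 0.26 (adjusted p = 0.773) in E7.5 Epi. The E7.5 Exe Dnmt-null libraries held 61800, 45380, 41290 and 113500 CPM, and overlapped with Control. SC embryos at E6.5 spread widely, with 6489, 972.5 and 36410 CPM in WT, 6134, 1565 and 5114 CPM in Dnmt-null and 5584, 4058 and 5616 CPM in DKO. Neither contrast with WT passed there (-2.26 ± 1.1, adjusted p = 0.289, and -1.95 ± 1.09, adjusted p = 0.424), and the highest library, WT replicate 3, was the one with the lowest epiblast markers.

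miR-5126 was the entry that passed in the most contrasts, 9 of 20, and 8 of these were rises. It was detected in all 62 Exe and Epi libraries, from 15.01 to 5548 CPM, and was near 0 in WT and O48 AG-haESCs, with 0 to 6.78 CPM. In E7.5 Epi the Control libraries held 66.22, 69.18 and 151.5 CPM, the Dnmt1-KO libraries 589.7, 420.3, 260.6 and 463.6 CPM, and the Dnmt3a/3b-DKO libraries 596.1, 543.1, 268.4 and 443.1 CPM. The Dnmt-null libraries held 908.9, 661.7 and 2306 CPM. All 11 mutant libraries were above all 3 Control libraries.

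The log2 fold changes over Control in E7.5 Epi were 1.99 ± 0.468 in Dnmt1-KO (adjusted p = 0.00644), 2.19 ± 0.472 in DKO (adjusted p = 0.00696) and 3.55 ± 0.517 in Dnmt-null (adjusted p = 6.32e-05). The 3 contrasts share the Control libraries. Library totals moved with them, and with log2 total as a covariate the values were 0.84 in Dnmt1-KO (adjusted p = 0.363), 1.35 in DKO (adjusted p = 0.0736) and 0.03 in Dnmt-null (adjusted p = 0.998). Only the DKO contrast then passed the unadjusted limit. Lineage markers moved too. The epiblast markers summed to 200400 to 210600 CPM in Control, 134500 to 198600 CPM in Dnmt1-KO, 191800 to 201500 CPM in DKO and 104300 to 163800 CPM in Dnmt-null. The trophoblast markers summed to 1389 to 1578 CPM in Control, and to 1888 to 2306, 1643 to 3843 and 2827 to 5757 CPM in the 3 mutants. The miR-290 cluster markers summed to 13920 to 14270 CPM in Control, and to 16840 to 26160, 14690 to 20760 and 22020 to 28200 CPM in the mutants. Their part in the rise of miR-5126 was not tested. Without Dnmt-null replicate 3 the Dnmt-null value was 2.77 (adjusted p = 0.000187).

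In the other tissues miR-5126 rose in part of the contrasts. In E7.5 Exe the Control libraries held 15.01, 46.69, 93.25 and 182.2 CPM and the Dnmt-null libraries 161.4, 551.6, 542.8 and 448.2 CPM, and the rise of 2.41 ± 0.601 (adjusted p = 0.0129) was 2.52 with the total as a covariate (adjusted p = 0.0157). It was 3.03 without Control replicate 4 (adjusted p = 0.00458) and 2.19 without Control replicate 2 (adjusted p = 0.0518). The epiblast markers were lower in these Dnmt-null libraries, at 17170 to 27240 CPM against 33050 to 45620 CPM, and their part was not tested. Dnmt1-KO in the same tissue rose by 1.60 ± 0.586 at the study's thresholds only (adjusted p = 0.117), or by 2.27 without Control replicate 4, and DKO did not pass (0.45 ± 0.575). In E6.5 Epi the DKO libraries held 476.2, 411.2, 671.1 and 515.4 CPM, all above the Control values of 227, 46.24, 24.57 and 106.8 CPM, with a rise of 2.36 ± 0.579 (adjusted p = 0.0217). With the total as a covariate this rise was 1.81 (adjusted p = 0.181). It was 3.0 without Control replicate 1 (adjusted p = 0.00497), and without 1 of Control replicates 2, 3 and 4 or DKO replicate 3 it was 2.04 to 2.45, with adjusted p of 0.0578 to 0.0927. The miR-290 cluster markers were lower in these DKO libraries, at 32650 to 45760 CPM against 56050 to 60620 CPM in Control. Their part was not tested. None of the 3 contrasts in E6.5 Exe passed, with values of -0.25 to 1.53 and SEs of 0.913 to 0.926.

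In SC embryos miR-5126 was also higher in the 2 groups of the main table without the Dnmt genes. The E7.5 mutant group also came from Mir-6KO cells. In those cells miR-5126 was 131.3 and 42.77 CPM against 0, 6.227 and 0 CPM in O48, a contrast that did not pass. The part of the cell line in the E7.5 rise was not tested. At E7.5 miR-5126 was 103.7, 28.13 and 38.55 CPM in Control and 449.8, 443.3 and 520.6 CPM in Mir-6KO;Dnmt-null, a rise of 2.83 ± 0.507 (adjusted p = 0.0184) that was 3.50 with the total as a covariate (adjusted p = 0.0589). It was 3.54 without Control replicate 1 (adjusted p = 0.00505), 2.68 without Control replicate 3 (adjusted p = 0.0701) and 2.75 without mutant replicate 3 (adjusted p = 0.0889). The epiblast markers were 77280 to 170000 CPM in the mutant and 177500 to 219500 CPM in Control, and their part was not tested. At E6.5 it was 56.19, 227.8 and 92.92 CPM in WT, 493.3, 463.7 and 235 CPM in Dnmt-null and 39.99, 49.99 and 49.9 CPM in DKO. Dnmt-null rose by 1.39 ± 0.478 (adjusted p = 0.196) and DKO fell by 1.56 on the log2 scale (SE 0.478, adjusted p = 0.18), both past the study's thresholds only. Dnmt-null was 2.01 without WT replicate 2, and did not pass without WT replicate 1 (0.96) or Dnmt-null replicate 1 (1.13), and DKO did not pass without WT replicate 2 (-0.94). Neither passed with the total as a covariate (1.32 and -1.33, adjusted p = 0.299 and 0.915). Without WT replicate 3, whose markers stood apart, the values were 1.23 and -1.61.

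**Figure D2:**
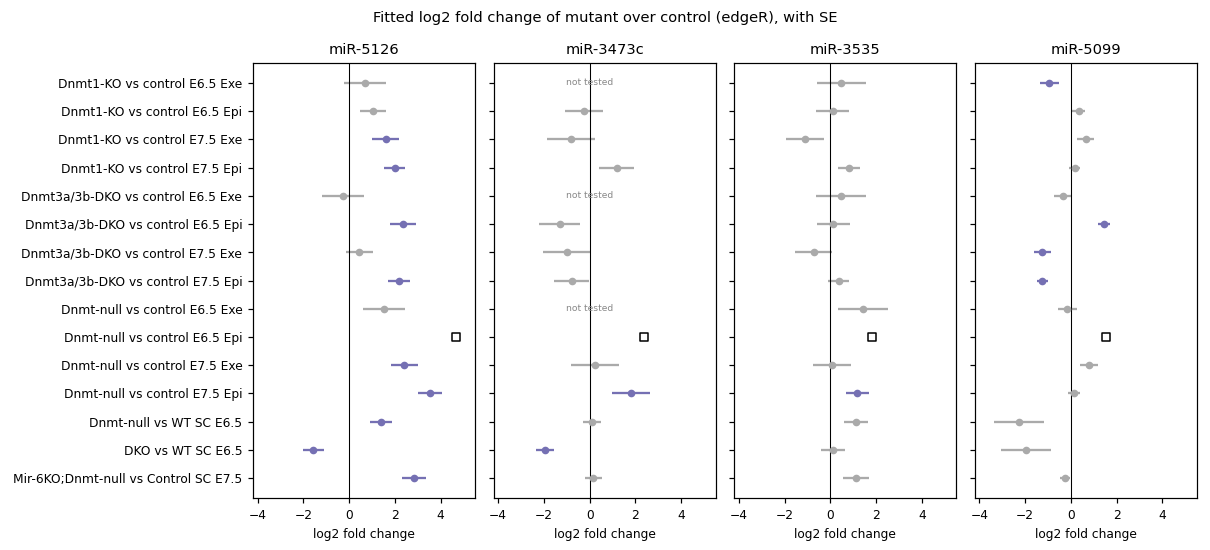
Fitted log2 fold change (horizontal axis, with SE bars) of 4 entries in 15 contrasts of mutants over their controls. Purple points passed the study's thresholds, grey points did not, and open squares mark the E6.5 Epi Dnmt-null contrast, which was not tested. miR-5126 lies right of 0 in all contrasts but those of DKO in E6.5 Exe and in SC embryos.

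miR-3473c had its highest group means in E6.5 SC Dnmt-null (276.9 CPM), E6.5 SC WT (209.9 CPM) and E6.5 Epi Dnmt-null (206.1 CPM). Its median was 24.19 CPM in Exe and Epi, where 4 of 62 libraries were at 0, 233.9 CPM in SC embryos at E6.5, 108.9 CPM at E7.5 and 55.39 CPM in AG-haESCs. In E7.5 Epi the Control libraries held 21.93, 24.48 and 14.79 CPM, the Dnmt1-KO libraries 74.36, 30.11, 39.13 and 65.09 CPM and the Dnmt-null libraries 29.32, 32.78 and 182.1 CPM. Every library of these mutant groups was above Control. The Dnmt3a/3b-DKO libraries, at 23.8, 15.54, 7.4 and 3.383 CPM, overlapped with Control and did not pass (-0.79). Dnmt-null passed at 1.79 ± 0.837 (adjusted p = 0.112) and Dnmt1-KO did not, at 1.17 ± 0.777 (adjusted p = 0.372). The Dnmt-null value was 0.34 without replicate 3, the library at 182.1 CPM, and did not pass without any one of the 3 Control libraries (1.62 to 1.92). With the total as a covariate it reversed to -2.14 (adjusted p = 0.792).

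Of the 5 tested relatives of miR-3473c, 3 rose in E7.5 Epi Dnmt-null and 3 in Dnmt1-KO, with medians over the 5 of 2.12 and 1.44 against -0.19 and -0.15 over all entries tested. The share passing in the higher direction over all entries was 19.9% and 13.5%. In SC embryos at E6.5 miR-3473c was 133.1, 256.5 and 240.1 CPM in WT and 58.59, 71.36 and 55.26 CPM in DKO, a fall of 1.96 on the log2 scale (SE 0.391, adjusted p = 0.0605) with no overlap. It did not pass with the total as a covariate (-1.97, adjusted p = 0.915), and was -1.65 without WT replicate 3 (adjusted p = 0.0494). The 3 tested relatives fell there as well, with a median of -1.32, while 9.33% of all entries passed in that direction. miR-3473b and miR-3473e begin alike, so reads can be split between these 2 relatives. The stem cells gave 68.55, 52.05 and 58.73 CPM in WT and 25.5, 42.28 and 21.24 CPM in O48, a difference of -0.98 (SE 0.39, adjusted p = 0.175) that did not pass without any one of 5 of the 6 libraries (-1.05 to -0.78).

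miR-3535, the snoRNA-identical entry, was found at a like order of level in all sample types, with medians of 81.63 CPM in Exe and Epi, 193.4 CPM in SC embryos at E6.5, 152.9 CPM at E7.5 and 162.9 CPM in AG-haESCs. It passed in 1 Dnmt contrast of Exe and Epi. In E7.5 Epi it was 51.6, 96.31 and 84.4 CPM in Control and 87.95, 157.8 and 367.7 CPM in Dnmt-null, with overlap and a fitted difference of 1.19 ± 0.505 (adjusted p = 0.081). The value was 0.40 without Dnmt-null replicate 3 and 0.96 without Control replicate 1, and passed in neither. It was 0.10 with the total as a covariate (adjusted p = 0.997). In SC embryos Dnmt-null did not pass at E6.5 (1.11 ± 0.524, adjusted p = 0.285) or with Mir-6KO at E7.5 (1.12 ± 0.571, adjusted p = 0.529).

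miR-6240 was the sparsest entry and its values were carried by single libraries. It was at 0 in 13 of the 62 Exe and Epi libraries and in 25 of all 88, and at 3 counts or fewer in 35. The floor of 3 counts stood at 66.3 CPM in the smallest Exe and Epi library. In the largest SC library it was 0.111 CPM, with an exact 95% upper limit of 0.137 CPM for a count of 0. In E6.5 Exe Control it was 851.7, 64.74, 39.59 and 0 CPM, the first from 56 of 65751 counts (95% exact binomial interval 643 to 1110 CPM). Replicate 1 was therefore over 5 times the group's median, and it was the smallest library of its group.

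Both control contrasts of miR-6240 that passed rested on that library. Exe exceeded Epi at E6.5 by 4.14 ± 1.59 (adjusted p = 0.0563), which was 1.38 and did not pass without Exe Control replicate 1. That contrast uses the E6.5 Epi Control libraries with which miR-6240 was chosen, so its test is not independent of the choice. Exe fell from E6.5 to E7.5 by 3.20 on the log2 scale (SE 1.48, adjusted p = 0.178), which was -0.42 without it, and which also did not pass without any one of the 4 E7.5 Exe Control libraries (-3.51 to -3.05). With the total as a covariate the stage contrast reversed to 1.997 (adjusted p = 0.874). In E7.5 embryos no genotype contrast of miR-6240 passed, with SEs of 1.26 to 1.86. In E6.5 Exe it was too sparse for the count filter and was not tested.

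miR-6240 had counts in 3 of 8 AG-haESC libraries, 6 of 9 SC libraries at E6.5, with up to 17.23 CPM, and 2 of 6 SC libraries at E7.5. All 3 O48 and both Mir-6KO libraries were at 0, against 0.2211, 1.994 and 4.457 CPM in WT cells. The observed WT mean was 4.09 times the mean O48 floor of 3 counts per library, 0.543 CPM. WT replicate 1, from 1 count, lay below that floor. The contrast of O48 and WT passed the study's thresholds but not after adjustment (adjusted p = 0.173), and not without O48 replicate 2 or replicate 3. miR-6240 entered this fit through its WT counts alone, so its passing cannot count as support. Only 4 leave-one-out fits held a value for it. All 3 E7.5 SC Control libraries were at 0 as well, whereas the Mir-6KO;Dnmt-null libraries held 195, 491 and 0 counts, or 21.04, 29.21 and 0 CPM. The observed mutant mean was 102 times the mean Control floor of 3 counts, although 1 of the 3 mutant libraries was at 0 and the entry did not enter the test.

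In E6.5 Epi, the contrast by which miR-6240 had been noticed, all 5 entries were higher on average in Dnmt-null than in Control. miR-6240 was 1083, 53.18, 360.1 and 40.59 CPM in Dnmt-null, from 49, 6, 24 and 5 counts, and 17.46, 0, 11.17 and 19.61 CPM in Control. The fitted log2 difference was 4.73, and the interval of the highest library was 801 to 1430 CPM. miR-5126 was 5548, 2393, 1485 and 1672 CPM against at most 227 CPM, a difference of 4.69. miR-3473c was 309.4, 141.8, 300.1 and 73.07 CPM against at most 62.55 CPM, a difference of 2.36. miR-5099 was 98070, 33420, 76110 and 51660 CPM against at most 25410 CPM, a difference of 1.55. These 4 did not overlap with Control, and the share of all entries without overlap in this contrast was not counted. miR-3535 was 22.1, 310.2, 660.1 and 259.8 CPM against 49.15 to 146.7 CPM, a difference of 1.84 with overlap. By another measure, the study's thresholds, 61 of all 409 entries tested were higher in this contrast and 45 were lower (25.9% together). Each Dnmt-null library was smaller than each Control library, and the 1083 and 5548 CPM came from the smallest library of Exe and Epi, which also stood apart from its group. The epiblast markers were 47830 to 99270 CPM in Dnmt-null and 129000 to 198400 CPM in Control, without overlap, and their part in these differences was not tested.

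Against the table as a whole, the entries did not pass more often in every contrast. Over 20 contrasts with a test, 91 values could be tested and 25 passed the study's thresholds, 13 of them also with an adjusted p under 0.05. The 91 include miR-6240 in Mir-6KO against O48, which was at 0 in all libraries and could not pass. Dnmt-null at E6.5 had 0 of 3 tested entries passing in Exe, where 13% of all entries passed. Dnmt-null at E7.5 had 1 of 5 in Exe (19.4% of all entries, 9.88% with an adjusted p under 0.05) and 3 of 5 in Epi (40.5%, and 31.9% adjusted). Dnmt1-KO at E6.5 had 1 of 3 in Exe (8.78%) with 0 of 5 in Epi (12%), and at E7.5 it had 1 of 5 in each tissue (Exe 16.8%, Epi 25%, the latter 14.9% adjusted). Dnmt3a/3b-DKO at E6.5 had 0 of 3 in Exe (9.04%) with 2 of 5 in Epi (14.9%, and 3.42% adjusted). At E7.5 it had 1 of 5 in Exe (8.21%) with 2 of 5 in Epi (17.8%, and 7.06% adjusted). Most of these passing values belonged to miR-5126 and miR-5099.

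Among controls, 2 of 5 passed between tissues at E6.5 (39.6%, and 28.9% adjusted), 0 of 5 at E7.5 (40.5%), and 1 of 5 between stages in Exe (25.3%) and in Epi (35.3%, and 26.9% adjusted). The miR-6240 value between tissues at E6.5 used the Epi Control libraries of the contrast that chose this entry. In SC embryos, 1 of 4 passed for Dnmt-null at E6.5 (18.9%), 2 of 4 for DKO (13%) and 1 of 4 at E7.5 (10.8%, and 3.08% adjusted). In AG-haESCs, 2 of 5 passed for O48 against WT (20.7%) and 3 of 5 for Mir-6KO against O48 (59%, and 51.6% adjusted). miR-6240 counts among the 2 that passed for O48 against WT, a fit it entered through its WT counts alone. For Mir-6KO against O48 it was at 0 in all libraries and could not pass. In the last contrast, with marker levels that moved as given above, miR-5099 rose by 1.05 ± 0.165 (adjusted p = 0.00112), miR-3473c by 1.17 ± 0.425 (adjusted p = 0.0493) and miR-3535 fell by 1.44 (SE 0.32, adjusted p = 0.00628). With the total as a covariate the last 2 did not pass, at 0.35 (adjusted p = 0.709) and -0.92 (adjusted p = 0.196), while miR-5099 did at 1.22 (adjusted p = 0.015). miR-3473c also did not pass without Mir-6KO replicate 1 (0.81), O48 replicate 1 (1.08) or O48 replicate 3 (0.98). miR-5126, at 131.3 and 42.77 CPM in Mir-6KO against 0, 6.227 and 0 CPM in O48, did not pass (4.83 ± 2.18, adjusted p = 0.0949).

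The other high-numbered entries are given by their counts. In E7.5 Epi Dnmt-null, 81 other entries numbered 3000 or above could be tested, of which 6 rose and 8 fell, with a median of -0.59 against -0.18 for the 566 tested entries with lower numbers. In E7.5 Exe Dnmt-null, 5 of 53 rose and 1 fell, with a median of 0.17 against -0.07. In E6.5 Epi DKO, where miR-5126 and miR-5099 both rose, 4 of 21 rose and 1 fell, with a median of 0.74 against -0.15 for 383 entries with lower numbers. In E6.5 Epi Dnmt-null, described only, 5 of 21 were higher and 1 was lower at the study's thresholds, with a median of 0.81 against -0.20. Only a small part of the 626 entries had enough counts to be tested in any embryo contrast.

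Levels were next set against library total within each tissue and stage, and 15 relations were tested outside E6.5 Epi, of which 1 passed after adjustment over the 15. In E7.5 Epi the log2 CPM of miR-5126 fell as log2 total rose over 14 libraries, with Pearson r = -0.846 (permutation p = 0.0002, adjusted p = 0.003) and Spearman rho = -0.873 (permutation p = 0.00013, adjusted p = 0.00195), two-sided with 100000 resamples. Without the 2 libraries whose totals were farthest from the median, r was -0.795. Genotype and total moved together in these libraries. After each genotype's mean was taken out, r was -0.639 (permutation p = 0.0497, adjusted p = 0.373) and rho -0.622 (permutation p = 0.0524, adjusted p = 0.389), and r was -0.536 without the 2 libraries. The relation thus did not pass within genotypes. Among all 658 well-counted entries in E7.5 Epi, 7 (1.06%) had an r at or below that of miR-5126, and the median r was 0.03.

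The other relations with total were weaker or could not be separated from genotype. Within genotypes, none of the 15 passed after adjustment, and only miR-5126 and miR-5099 in E7.5 Epi were under 0.05 before it, the latter with r = -0.716 (permutation p = 0.0179, adjusted p = 0.268) and rho = -0.684 (permutation p = 0.0241, adjusted p = 0.362), or r = -0.565 without the 2 libraries. In E6.5 Epi, where the Dnmt-null libraries are the smallest, r is given without a test because the Dnmt-null contrast there chose miR-6240. It was -0.863 for miR-5126, -0.765 for miR-5099, -0.623 for miR-6240, -0.502 for miR-3473c and -0.237 for miR-3535, against a median of 0.26 over all entries. The within-genotype values there were -0.43, -0.42, -0.33, -0.06 and 0.26. In E6.5 Exe and E7.5 Exe the 10 values ran from -0.537 to 0.148, and none passed after adjustment.

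**Figure D3:**
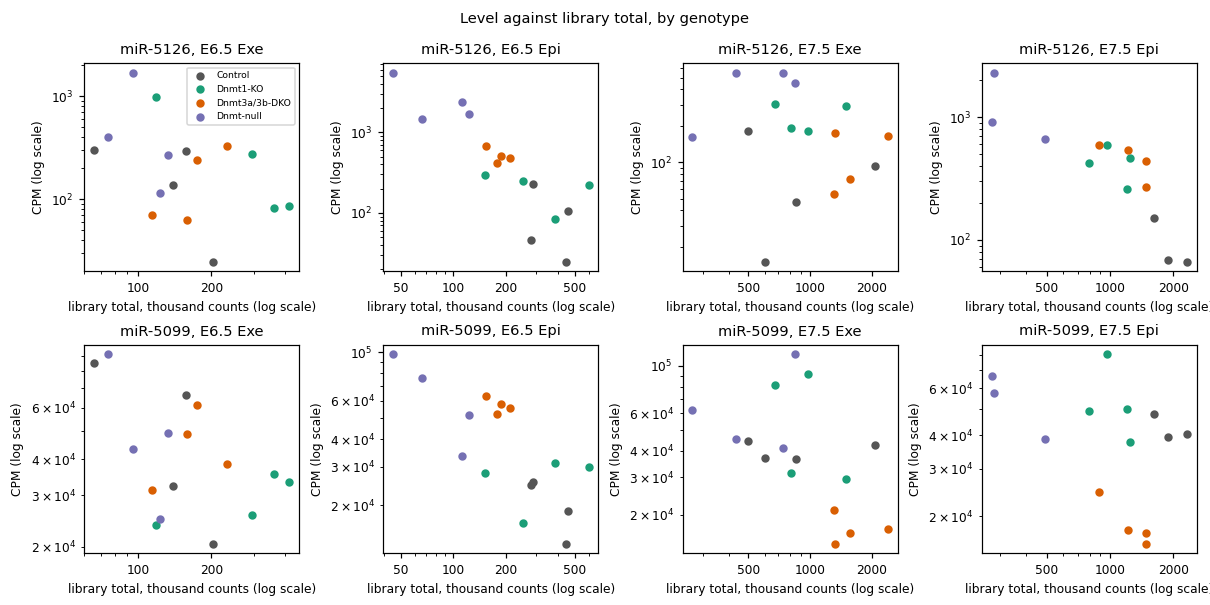
Level in CPM (vertical log axis) against library total in units of 1000 counts (horizontal log axis) for miR-5126 (top) and miR-5099 (bottom) in each tissue and stage, one point per library coloured by genotype. In E7.5 Epi the miR-5126 points fall from 2306 to 66.22 CPM as totals rise, and the Dnmt-null libraries sit at the low totals and Control at the high ones.

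The entries were then compared with each other across libraries. After the mean of each genotype, tissue and stage was removed, none of the 10 pairs passed after adjustment over 62 libraries, and 1 was under 0.05 before it. That pair, miR-3535 and miR-5099, had r = -0.374 (permutation p = 0.0373, adjusted p = 0.288) and rho = -0.211 (permutation p = 0.175, adjusted p = 0.357), with r = -0.373 without the 2 libraries farthest from the median. The largest positive value was that of miR-3473c and miR-3535, at r = 0.356 (permutation p = 0.0724, adjusted p = 0.288).

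The miRNAs whose log2 CPM most resembled each entry over the 62 Exe and Epi libraries are given as a description, since the points share tissue, stage and total. For miR-3473c they were its relatives miR-3473b (r = 0.73) and miR-3473a (0.717), followed by miR-296-5p (0.495). miR-3535 was most like miR-1193-5p (0.644), miR-770-3p (0.643) and miR-382-5p (0.64), and miR-5099 most like miR-668-3p (0.639), miR-433-3p (0.63) and miR-423-5p (0.559). The values were lower for miR-5126, with miR-485-5p (0.563), miR-99b-5p (0.557) and miR-431-3p (0.545), and for miR-6240, with miR-154-3p (0.49), miR-690 (0.484) and miR-337-5p (0.455).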

How the data were processed

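Per the labels and the methods of the study, fastp 0.20.1 cleaned the reads, and Bowtie 1.2.1.1 placed them first on GRCm38 and next on the mature sequences of miRBase, allowing up to 2 templated bases fewer or more at the 3′ end. The authors deposited raw counts per mature entry, which are not normalised, and reads that match several loci or near-identical entries may be split between them. The main table holds 88 libraries. Another 3 are in a separate table, and 2 columns that match no sample were not used.

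From the counts, edgeR 4.0.16 (R 4.3.3) fitted quasi-likelihood models with TMM factors across all entries that passed filterByExpr at a count minimum of 10, one fit per tissue and stage with its 4 genotypes, one for the Control embryos, one for AG-haESCs and one for SC embryos of each stage. Following the study, a value passed where its log2 fold change exceeded 0.5 in size and p before adjustment was below 0.05. Adjusted p-values are Benjamini-Hochberg over all entries of a fit. Correlations used log2 CPM with a prior count of 2 and two-sided permutation tests with 100000 resamples (Python 3.11.15). Relations and interactions that rest on Dnmt-null in E6.5 Epi were left out of tests and adjustments. The tests were checked on simulated counts. Alternatives were DESeq2 1.42.0, other scalings and filters, the total as a covariate, a replicate block and leaving out single libraries.

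The members, the lists and the lineage markers (4 epiblast, 5 trophoblast and 3 naive stem cell miRNAs) were chosen with earlier results of these data known. Named miRNAs are the 5 members, the miR-3473 relatives and, per member, the 3 entries with the highest correlation over 62 libraries. Replicate libraries were compared pairwise for copies, and in 112 pairs the lowest chi-square per degree of freedom was 10.5. One AG-haESC line, of 3 libraries, has no group in the labels and entered no comparison. Sequences are from RefSeq tables on GRCm38.p6, which held a mature sequence for 4 of the 5 members.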

Additional observations from a re-analysis of the deposited data

Results flagged for a closer look

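In 14 groups of 4 libraries, checked for 5 entries each (70 checks), 4 single values stood apart from the rest of their group by Dixon's test, where chance gives about 3.5. miR-6240 was 851.7 CPM in E6.5 Exe Control replicate 1 (others 0 to 64.74 CPM) and 67.71 CPM in E6.5 Epi Dnmt1-KO replicate 4 (others 9.986 to 19.63 CPM). miR-3473c was 211.8 CPM in E6.5 Exe Dnmt1-KO replicate 4 (others 0 to 5.523 CPM). miR-3535 was 0 in E6.5 Exe Dnmt1-KO replicate 3 (others 84.73 to 93.21 CPM), a library that also stood apart from its group over all entries and in which 0 counts, with a floor of 3 counts, allow up to 10.2 CPM.

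The effect of Dnmt3a/3b-DKO on miR-5099 in Epi differed between the stages by -2.67 on the log2 scale (SE 0.524, adjusted p = 0.00261, edgeR interaction).

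The separate table of DKO-Dnmt-null SC embryos at E6.5 took no part in the comparisons. Its mean levels exceeded every DKO SC library for miR-5126 (174.9 CPM against 39.99 to 49.99 CPM), miR-3473c (132.5 CPM against 55.26 to 71.36 CPM) and miR-3535 (593.7 CPM against 176.9 to 193.4 CPM). The difference was not tested, since the tables were deposited apart. In the AG-haESC line that the labels put in no group, the median of miR-5099 was 574.2 CPM, above the 500 to 550.8 CPM of WT cells, and this too was not tested.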

How the results depend on the processing

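For Dnmt-null (4 passing in 3 tissue and stage combinations) the count was 7 without the filter on low counts and 2 with a replicate block, with log2 total as a covariate or with adjusted p. For Dnmt1-KO and Dnmt3a/3b-DKO (8) it was 12 without the filter and 5 with adjusted p. For Exe against Epi (2) it was 0 with the covariate and 1 with only the 2 groups compared or with adjusted p. For E7.5 against E6.5 (2) it was 1 with the block, the covariate or adjusted p. For AG-haESCs (5) it was 3 without the filter, with the block or with adjusted p, and 2 with the covariate or only the 2 groups. For SC embryos (4) it was 7 with DESeq2, 9 without the filter, 2 with the covariate and 1 with adjusted p. Of single fold changes, only miR-3473c in E7.5 Epi Dnmt-null (-2.14) and miR-6240 between stages in Exe (1.997) reversed, both with the covariate, and in 279 such values 46 no longer passed. Leaving out each replicate gave 2 to 5, 7 to 10, 1 to 3, 1 to 3, 2 to 5 and 3 to 5 passing values in these 6 comparisons, and a median share of 3.068% to 3.131%. The Dnmt-null count was 2 without E7.5 Epi Dnmt-null replicate 3 or Control replicate 1. Exe against Epi was 1 without E6.5 Exe Control replicate 1. E7.5 against E6.5 was 1 without that library, any E7.5 Exe Control library or E6.5 Epi Control replicate 1 or 3. AG-haESCs were 3 without WT replicate 2 or 3 or O48 replicate 1, and 2 without O48 replicate 3. Correlations of the deviations of same-numbered replicates ran from -0.258 to 0.427 in the fits. Their median was 0.175 in SC embryos at E6.5, against -0.0925 for other numbers, and 0.073 against -0.0274 in E6.5 Epi. Whether the numbers pair the libraries there was not settled, and the block is not the main fit. With the block, the counts were 9 for Dnmt1-KO and DKO, 2 for Exe against Epi and 5 for SC embryos. The cause of these changes was not tested. In the smallest Exe and Epi library the floor of 3 counts stood at 66.3 CPM.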

Other observations

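In the DKO-Dnmt-null SC embryos the single libraries held 192.5, 186.3 and 145.8 CPM of miR-5126, 116.4, 118.5 and 162.5 CPM of miR-3473c and 405.4, 750.8 and 625 CPM of miR-3535. miR-5099 was 3899, 4002 and 4613 CPM there, within or just under the 4058 to 5616 CPM of DKO SC embryos. miR-6240 was at 1.464, 0 and 4.167 CPM, from 2, 0 and 1 counts. The 3 AG-haESC libraries without a group held 3.04, 11.16 and 6.233 CPM of miR-5126 and 235.3, 242.3 and 237.7 CPM of miR-3535.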
